A study of Mus musculus with 21 samples.

Results

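The contralateral ventral pons of mice was compared between day 30 and day 7 after a facial nerve had been cut on the other side of the head. The comparison uses 6 of the study's 21 RNA-seq libraries, chosen by their sample titles: day 30 replicates 1, 2 and 3 and day 7 replicates 1, 2 and 3 of the uncut side. Of 45664 gene rows, 22294 with a summed count of at least 30 over the 21 libraries were tested. All mice were C57BL/6 of the line CX3CR1GFP/wt, in which green fluorescent protein takes the place of 1 copy of Cx3cr1, the fractalkine receptor gene that microglia use, so every group lacks 1 functional copy. The right facial nerve was cut at its exit from the skull when the mice were 8 weeks old, and the mice were 12 weeks old on day 30 and 9 weeks old on day 7 (10 on day 14 and 8 on day 0). The tissue was a left block of ventral pons that holds the facial nucleus, whose axons were not cut on this side, together with neighbouring nuclei. Libraries of the lesion side on the same days, of both sides on day 14 and of the unoperated pons on day 0 (3 per group) entered the model that estimates the spread. Age and the sequencing lane named in the column headers differ between day 30 and day 7, so time after the operation, age and lane cannot be told apart. The labels do not say whether replicates are separate animals, and p-values measure the spread between these libraries.

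The ventral pons is built of motor and reticular neurons, thick tracts of myelinated axons, glia and vessels, and its neurons depend on mitochondrial respiration. Mitochondrial DNA encodes core subunits of the respiratory chain and the ribosomal and transfer RNAs needed to translate them, and both strands are transcribed into long precursors that are cut apart, mostly at the transfer RNAs. Most respiratory chain subunits are encoded in the nucleus instead. Fragments of mitochondrial DNA have also been inserted into nuclear chromosomes, where the annotation lists most of them as pseudogenes, and a short read cannot be placed where a fragment and the mitochondrial gene have the same letters.

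Summed counts per library ran from 17956784 to 21908496 on day 30, against 19592801 to 20466362 on day 7. Levels of single genes are given as CPM, in which each count is scaled by its library's total multiplied by its TMM factor. Summed levels of gene lists, also given as CPM, and shares of counts are scaled by the library's total alone. The scales differ by the TMM factor, which ran from 0.972 (day 30 replicate 3) to 1.004 (day 7 replicate 3) in the 6 libraries. Log2 differences are day 30 minus day 7 ± SE from edgeR's quasi-likelihood test with TMM factors, with 3 libraries per group. The p-values are adjusted by Benjamini-Hochberg over the 22294 genes. At day 30 the letters for left and right in the column names were opposite to the labels, and the columns were assigned by the sample descriptions. Sprr1a, a gene of cut neurons, stood at 1.06, 0.225 and 0.188 CPM in the contralateral pons on day 30, against 35.1, 82 and 72.8 CPM on the lesion side. On day 7 it stood at 0.308, 0.299 and 0.341 CPM in the contralateral pons, against 216, 295 and 168 CPM on the lesion side. All 6 contralateral libraries thus lay below the lesion libraries of their day, as the assigned sides require. Chat, which makes acetylcholine in motor neurons, was present in every library at 42.4, 30.6 and 33.3 CPM on day 30, against 26.3, 30.2 and 36.3 CPM on day 7.

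Markers of tissue next to the block differed between the libraries. Gh, the growth hormone gene of the pituitary, had 0.915, 1.18 and 0.0470 CPM on day 30, against 367, 17.3 and 11.2 CPM on day 7. The prolactin gene Prl had 3.61, 1.63 and 0 CPM on day 30, against 821, 23.9 and 16.6 CPM on day 7. Day 7 replicate 1 stood far above the other 5 libraries for both hormones. The summed level of the pituitary and muscle list was 7.94 to 12.5 CPM on day 30, against 39.5 to 1226 CPM on day 7. The same library was the highest for cerebellar genes. Gabra6, a receptor subunit of granule cells, had 1.4, 1.58 and 1.78 CPM on day 30, against 13.7, 3.59 and 4.04 CPM on day 7. The cerebellin gene Cbln3 had 4.0, 5.4 and 4.46 CPM on day 30, against 32.7, 10.5 and 10.7 CPM on day 7. Over the 18 cerebellar genes the sums were 556 to 567 CPM on day 30, against 667 to 903 CPM on day 7. In 8 of the 18 all day 30 libraries were below all day 7 libraries, against 8.87% of all genes. Ttr, the defining choroid plexus transcript, was low at 8.86, 14.6 and 25.9 CPM on day 30, against 21.7, 19 and 45.9 CPM on day 7. Over the 12 choroid plexus genes the sums were 550 to 572 CPM on day 30, against 624 to 644 CPM on day 7. In 4 of the 12 all day 30 libraries were below all day 7 libraries, against 8.87% of all genes. By edgeR 0 genes of the cerebellar list were called (lowest adjusted p = 0.155, 0 higher and 9 lower at an unadjusted p under 0.05, 0 higher and 2 lower by DESeq2). In the pituitary and muscle list 0 were called as well (0.215, 0 higher and 6 lower at an unadjusted p under 0.05, 0 higher and 2 lower by DESeq2), and likewise 0 in the choroid plexus list (0.869, 0 higher and 0 lower at an unadjusted p under 0.05, 0 higher and 0 lower by DESeq2). For these and the later lists, 2224 of all 22294 genes had an unadjusted p under 0.05, and DESeq2 called 162. How far neighbouring tissue took part in the results below was not tested beyond the fits without day 7 replicate 1.

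**Figure D1:**
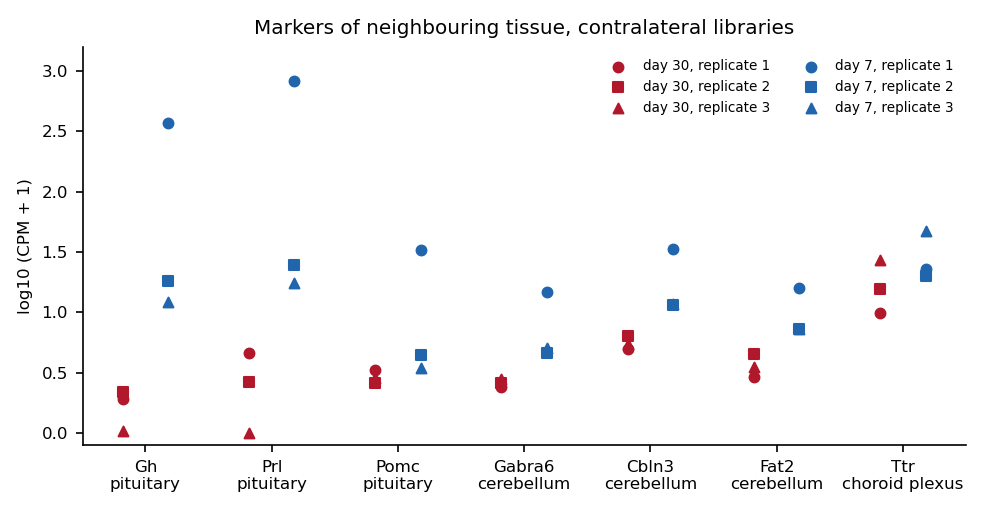
Levels of pituitary, cerebellar and choroid plexus marker genes in the 6 contralateral libraries, as log10 of CPM plus 1; each point is 1 library, with day 30 left of day 7. Day 7 replicate 1 is the highest of the 6 for the 3 pituitary and the 3 cerebellar genes, with Gh at 367 and Prl at 821 CPM.

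Between day 30 and day 7 few transcripts of the contralateral pons changed past the threshold, and the largest rises were those of the heat shock gene Hspa1b, the monooxygenase gene Fmo2, the mitochondrial copy Gm12155 and the zinc finger gene Zfp366. Of 22294 genes 31 were called at an adjusted p under 0.05 (0.139%), 22 of them higher (0.0987%) and 9 lower (0.0404%) on day 30. Among the 22 that rose, 6 are encoded by the mitochondrial genome, 6 are nuclear copies of mitochondrial genes and 10 are neither. The 9 that fell are nuclear genes: Chgb, Gfra2, Tuba8, Fa2h, Gsn, Adamts2, Vstm4, Ets2 and Smarca4. Changes were small for most: 14 of the 31 had an absolute log2 difference under 0.5, and 7 reached 1. The day 30 and day 7 libraries did not overlap for any of the 31, which was the case for 17% of all genes tested. The 31 were called on these same libraries, so the lack of overlap is not independent of the call. At an unadjusted p under 0.05 there were 2224 genes, and the median log2 difference of all genes was 0.0035.

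The calls depended on single libraries. Without day 30 replicate 3 only mt-Co1 was still called, and without day 30 replicates 1 or 2 the numbers were 21 and 7. Without day 7 replicate 1, the library with the pituitary markers, 17 genes were called, 15 of them among the 31. Without day 7 replicates 2 or 3 the numbers were 6 and 7. Each of these fits compares 2 with 3 libraries. Of the 31 genes 1 was called in all 6 such fits, 2 in 5, 1 in 4, 2 in 3, 8 in 2, 7 in 1 and 10 in 0, and no sign turned in any fit. With mitochondrially encoded genes left out of the totals and tests, 15 genes were called (9 higher, 6 lower), and with their nuclear copies left out too, 2 were (Hspa1b and Gas5). DESeq2 called 162 (80 higher, 82 lower), of which 25 were among the 31, and gave 6 of the 31 no adjusted p.

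**Figure D2:**
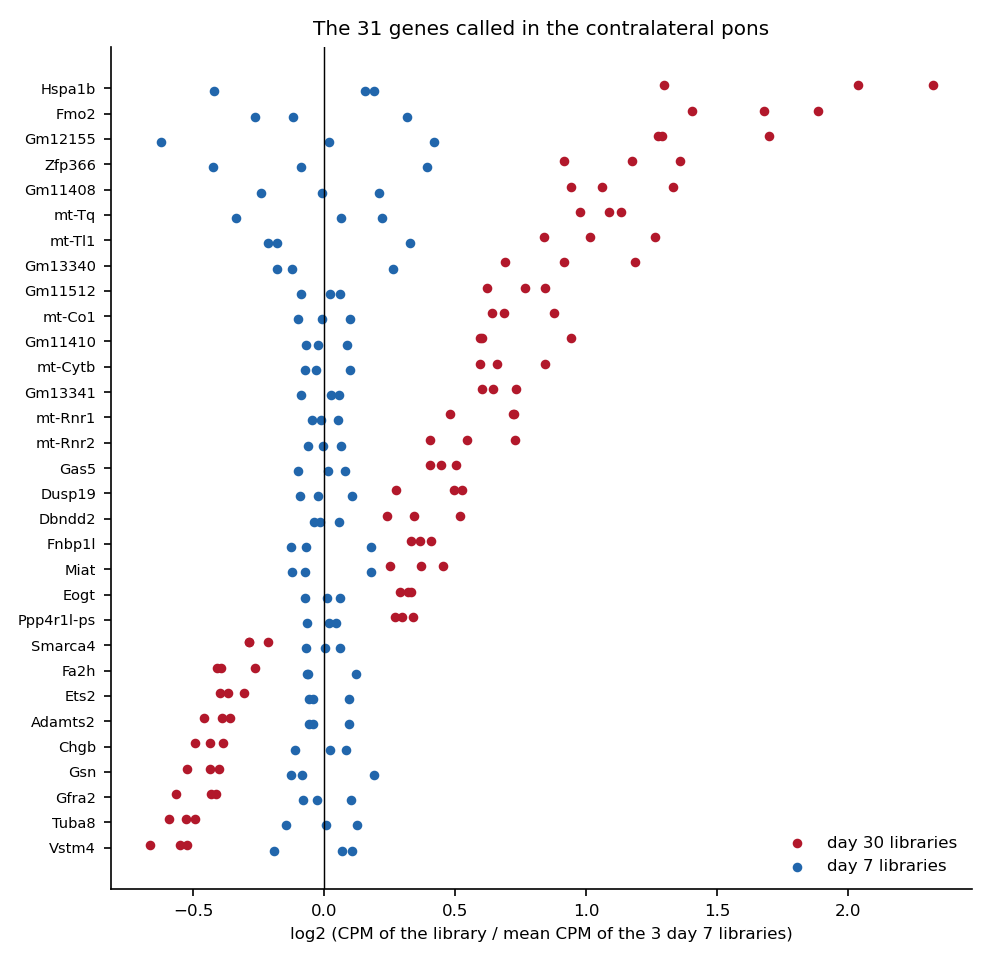
Level of each of the 31 called genes in the 3 day 30 and the 3 day 7 contralateral libraries, as log2 of CPM over the mean CPM of the 3 day 7 libraries, from the largest rise at the top to the largest fall at the bottom. Points are single libraries, and the 2 days do not overlap for any of the 31 genes, which were called on these same libraries.

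The share of counts from mitochondrially encoded genes was higher on day 30. It was 6.38%, 6.31% and 7.29% on day 30, against 4.45%, 3.94% and 4.11% on day 7. All 3 day 30 libraries lay above all 3 day 7 libraries, with day 30 replicate 3 the highest. The means were 6.66% ± 0.542 on day 30 and 4.17% ± 0.257 on day 7 (SD, n = 3 each), a ratio of 1.60. The exact permutation test gave a two-sided p = 0.1, the smallest that 3 against 3 libraries allow. The 2 ribosomal RNAs made up 0.735% ± 0.0752 of counts on day 30 and 0.494% ± 0.0210 on day 7. In bulk tissue, more or fewer cells of a type and more or less RNA per cell cannot be told apart.

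**Figure D3:**
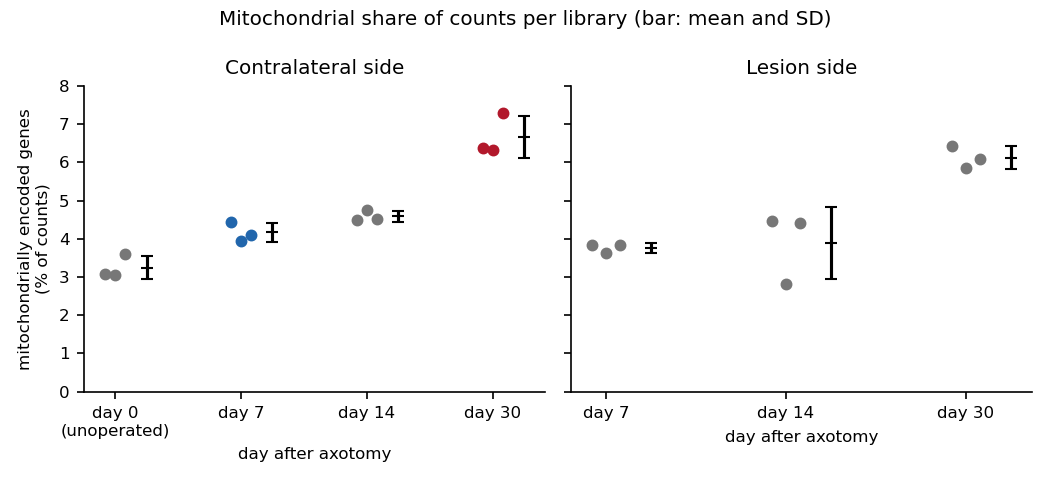
Share of counts from mitochondrially encoded genes in each library of the contralateral side (left, with the unoperated day 0) and the lesion side (right), in percent; points are libraries and bars the mean and SD of 3. The day 30 libraries lie between 6.31% and 7.29% on the contralateral side and between 5.84% and 6.44% on the lesion side, above every library of the earlier days.

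Of the 37 mitochondrial genes 29 passed the filter on low counts, and all 29 had a positive log2 difference. The 95% interval lay above 0 for 24 of them and all day 30 libraries lay above all day 7 libraries for 23, against 8.16% of all genes tested. These genes share long precursors and were measured in the same libraries, so the 29 are not separate observations. Past the adjusted threshold of edgeR, 6 of the 29 rose, against 0.0987% of all genes. DESeq2 called 11 higher, against 80 of all 22294 genes, and gave 15 no adjusted p. The 13 protein-coding genes had log2 differences between 0.51 and 1.65, with all 13 intervals above 0 and 2 genes called.

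Among the protein-coding genes the calls were mt-Co1 and mt-Cytb. The transcript of mt-Co1, the catalytic subunit of respiratory complex IV (GRCm38 chrM:5328-6872), had 13998, 14458 and 16528 CPM on day 30, against 9631, 8387 and 8945 CPM on day 7. The highest day 7 library stayed well below the lowest day 30 library. mt-Co1 rose, with a log2 difference of 0.74 ± 0.093, adjusted p = 0.00149. It is the 1 gene called in each of the 6 fits that left a library out, with adjusted p from 0.00300 to 0.0223. mt-Cytb, the cytochrome b of complex III (chrM:14145-15288), had 12635, 13215 and 14997 CPM on day 30, against 8947, 7950.4 and 8171 CPM on day 7. Its groups did not overlap either, and it rose, with a log2 difference of 0.70 ± 0.12, adjusted p = 0.0238. That call was lost without day 30 replicate 2 or 3 or day 7 replicate 2 or 3 (adjusted p up to 0.176).

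All 7 complex I genes had intervals above 0 and groups that did not overlap, and 0 of the 7 were called by edgeR (all 7 at an unadjusted p under 0.05, and 5 called by DESeq2). mt-Nd1 had 9370.0, 9225 and 11740.1 CPM on day 30, against 7055, 6083 and 6141 CPM on day 7 (log2 difference 0.65 ± 0.20, adjusted p = 0.261). mt-Nd4 had 6531, 6738 and 8002 CPM on day 30, against 4819, 4113 and 4316 CPM on day 7 (0.68 ± 0.18, adjusted p = 0.185). mt-Nd6, the 1 protein gene transcribed from the other strand, had 2693, 2482 and 2644 CPM on day 30, against 1952, 1697 and 1831 CPM on day 7. Its log2 difference was 0.51 ± 0.12 (95% interval 0.26 to 0.76, adjusted p = 0.105). That is the smallest difference of the 13. Larger differences with a wider spread were seen in genes of fewer counts. The complex IV gene mt-Co3 had 48.1, 40.1 and 93.8 CPM on day 30, against 34.7, 24.4 and 18.3 CPM on day 7 (1.24 ± 0.35, adjusted p = 0.235). The ATP synthase gene mt-Atp6 had 28, 44 and 79.5 CPM on day 30, against 24.8, 18.2 and 18.7 CPM on day 7 (1.30 ± 0.44, adjusted p = 0.315). In both genes day 30 replicate 3 was far above the other day 30 libraries. Each has a chromosome 1 copy without a mismatch, Gm28437 over 783 bases of mt-Co3 and Gm10925 over 678 bases of mt-Atp6. Reads of these stretches cannot be placed.

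Both ribosomal RNAs of the mitochondrial ribosome rose. mt-Rnr1, the small subunit RNA (chrM:70-1024), had 2971, 2507 and 2962 CPM on day 30, against 1743, 1866 and 1785 CPM on day 7. mt-Rnr1 rose, with a log2 difference of 0.65 ± 0.10, adjusted p = 0.0127. mt-Rnr2, the large subunit RNA (chrM:1094-2675), had 5219, 4167 and 4597 CPM on day 30, against 3017, 3297 and 3141 CPM on day 7. mt-Rnr2 rose, with a log2 difference of 0.56 ± 0.090, adjusted p = 0.00920. Day 30 replicate 2 was the lowest of its group for both RNAs, still above every day 7 library. The call of mt-Rnr1 was lost without day 30 replicate 3 or day 7 replicate 1, 2 or 3 (adjusted p up to 0.113). For mt-Rnr2 this held without day 30 replicate 3 or day 7 replicate 3 (up to 0.0519).

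Of the 14 transfer RNA genes tested all 14 had positive differences and 2 rose, against 0.0987% of all genes. mt-Tl1, a leucine transfer RNA that begins directly after mt-Rnr2 (chrM:2676-2750), had 4.24, 5.68 and 4.79 CPM on day 30, against 2.98, 2.04 and 2.09 CPM on day 7. mt-Tl1 rose, with a log2 difference of 1.05 ± 0.20, adjusted p = 0.0238. mt-Tq, the glutamine transfer RNA on the minus strand (chrM:3772-3842), had 4.96, 5.12 and 4.6 CPM on day 30, against 2.72, 2.44 and 1.85 CPM on day 7. mt-Tq rose, with a log2 difference of 1.07 ± 0.19, adjusted p = 0.0132. Both rest on few counts, and both genes are little longer than the 50-base reads. Each was lost without day 30 replicate 2 or 3 or day 7 replicate 2 or 3 (adjusted p up to 0.165 for mt-Tl1 and 0.0836 for mt-Tq). mt-Tq overlaps mt-Ti on the opposite strand, and whether counting used the strand is not given in the sources used here.

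**Figure D4:**
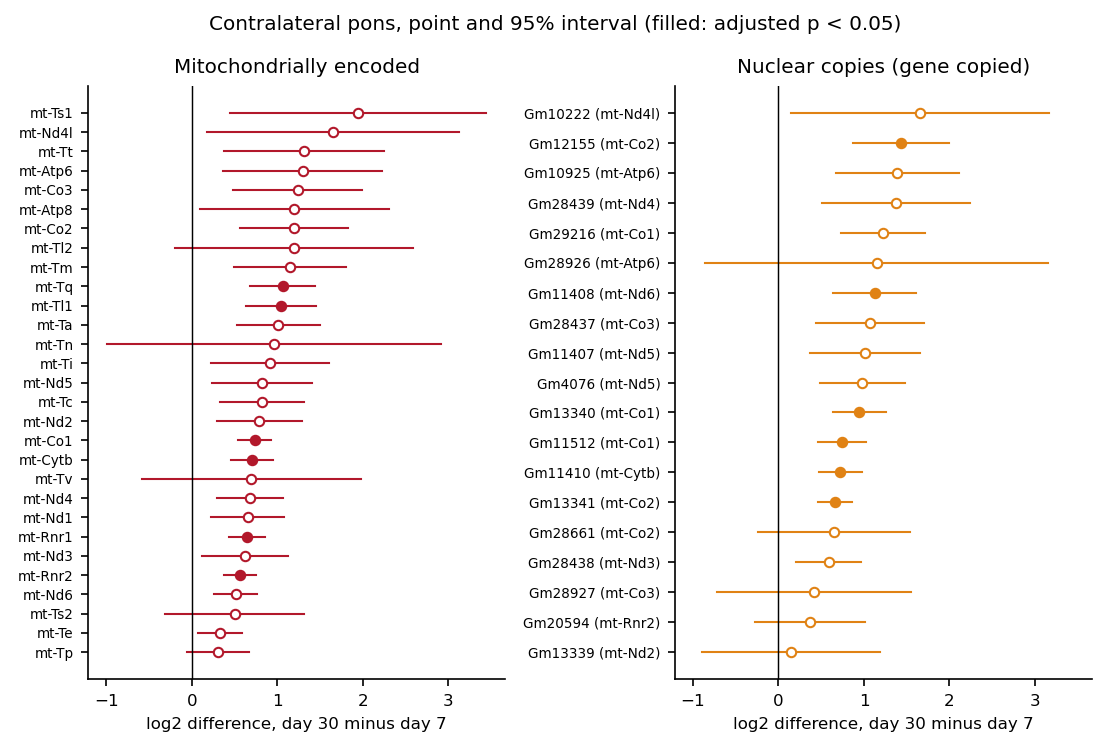
Log2 difference, day 30 minus day 7, of the 29 mitochondrially encoded genes tested (left) and of 19 nuclear copies (right, with the mitochondrial gene each copies in parentheses). Points are estimates and lines 95% intervals, and filled points passed an adjusted p under 0.05. Every point lies above 0, between 0.31 (mt-Tp) and 1.95 (mt-Ts1) on the left and between 0.14 (Gm13339) and 1.66 (Gm10222) on the right.

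Nuclear copies had differences of the same sign as the genes they resemble. A search of GENCODE M21 transcripts at 80% identity over at least 100 bases found 29 copies, and 19 passed the filter on low counts. All 19 had positive log2 differences, 14 with intervals above 0 and 12 with groups that did not overlap (8.16% of all genes had day 30 libraries all above). By edgeR 6 were called, against 0.0987% of all genes called higher. DESeq2 called 7, against 80 of all 22294 genes called higher, and gave 9 no adjusted p. Summed over the copies, the share of counts was 0.0480% ± 0.00701 on day 30 and 0.0266% ± 0.00201 on day 7 (SD, n = 3 each, exact permutation p = 0.1). The 6 called copies, all pseudogenes, are named outside the naming rule, after their values were seen.

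The copy of mt-Co2 on chromosome 2, Gm13341, had 141, 145 and 154 CPM on day 30, against 96.6, 87.4 and 94.5 CPM on day 7. Gm13341 (GRCm38 chr2:22587291-22587962, minus strand) rose, with a log2 difference of 0.66 ± 0.10, adjusted p = 0.00722. Beside it lies the mt-Co1 copy Gm13340 (GRCm38 chr2:22588103-22589647, minus strand), which had 84.2, 98.3 and 119 CPM on day 30, against 62.5, 47.9 and 46 CPM on day 7. Gm13340 rose, with a log2 difference of 0.95 ± 0.15, adjusted p = 0.0225. In both genes every day 30 library was above every day 7 library, with replicate 3 the highest of day 30. Gm11410 copies mt-Cytb on chromosome 4 (GRCm38 chr4:80003989-80005131, plus strand) and had 21.3, 21.4 and 27.1 CPM on day 30, against 15, 13.5 and 13.9 CPM on day 7. Gm11410 rose, with a log2 difference of 0.72 ± 0.12, adjusted p = 0.0109. Gm11512, a second mt-Co1 copy, had 18.3, 20.3 and 21.4 CPM on day 30, against 12.4, 12.1 and 11.2 CPM on day 7, without overlap (0.75 ± 0.14, adjusted p = 0.0238). The mt-Nd6 copy Gm11408 and the mt-Co2 copy Gm12155 had few counts. Gm11408 had 3.9, 2.98 and 3.24 CPM on day 30, against 1.8, 1.54 and 1.31 CPM on day 7 (1.12 ± 0.24, adjusted p = 0.0499). Gm12155 had 1.88, 1.86 and 2.49 CPM on day 30, against 1.03, 0.498 and 0.779 CPM on day 7 (1.44 ± 0.27, adjusted p = 0.0238). Without day 30 replicate 3 none of the 6 was called (adjusted p from 0.0519 for Gm13341 to 0.230 for Gm12155), and Gm11408 was lost in each of the 6 fits.

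How far copy and mitochondrial gene can be told apart by reads varied between pairs. Of all 50-base windows of Gm13341 36.0% occur without a mismatch in a mitochondrial gene, of Gm13340 27.5%, of Gm11512 0.8%, and of Gm11410, Gm11408 and Gm12155 none. Seen from the other side, 51.1% of the windows of mt-Co1 also occur in other annotated genes, most of them in the chromosome 1 copy Gm29216. Among copies that were not called, Gm10222, Gm10925, Gm28437, Gm28439 and Gm28661 share 100% of their windows with mitochondrial genes, Gm28438 99.0% and Gm29216 97.1%. Reads separate these copies from the mitochondrial genes in few windows or none, so their positive differences are not separate observations. The windows count exact matches only, whereas an aligner may place a read despite mismatches. Whether reads of mitochondrial genes were counted for the called copies was not tested. The rises of the called copies are therefore not shown to be separate observations either. The first 150 bases of 2 pairs are shown as examples of 2 situations among the called copies, a nearly identical copy and a copy that differs along its length. The first pair differs at 3 of 150 positions and the second at 11. Sequences are GENCODE M21 transcripts on GRCm38, 5′ to 3′, and capitals mark the positions at which the members of a pair differ.
Gm13340: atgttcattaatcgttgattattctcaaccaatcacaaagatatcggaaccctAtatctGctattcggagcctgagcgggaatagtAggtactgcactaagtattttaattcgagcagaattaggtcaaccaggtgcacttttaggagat
mt-Co1: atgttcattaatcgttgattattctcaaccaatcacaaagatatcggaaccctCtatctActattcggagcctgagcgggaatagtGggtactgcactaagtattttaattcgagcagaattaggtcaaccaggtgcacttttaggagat
Gm11410: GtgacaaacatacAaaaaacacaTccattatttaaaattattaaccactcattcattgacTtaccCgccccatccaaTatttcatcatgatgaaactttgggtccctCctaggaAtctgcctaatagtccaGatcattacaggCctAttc
mt-Cytb: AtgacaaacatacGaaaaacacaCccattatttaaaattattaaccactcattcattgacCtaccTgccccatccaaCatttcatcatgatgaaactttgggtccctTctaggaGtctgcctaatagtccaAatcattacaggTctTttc

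No nuclear gene of the same respiratory complexes was called. Of 52 listed subunit genes 0 were called by edgeR (0 higher and 1 lower at an unadjusted p under 0.05, 0 higher and 0 lower by DESeq2). The median log2 difference was -0.0088, and 22 of the 52 were positive. Their summed level was 12215 to 12688 CPM on day 30, against 12489 to 13195 CPM on day 7, with overlapping groups. Ndufa8, a complex I subunit, had 126, 120.4 and 133 CPM on day 30, against 139, 146 and 139.6 CPM on day 7 (-0.16 ± 0.067, 95% interval -0.30 to -0.020). Uqcrc1 of complex III had 367, 396 and 383 CPM on day 30, against 414, 416 and 393 CPM on day 7 (-0.093 ± 0.060, -0.22 to 0.031). Cytosolic ribosomal protein genes had a median of 0.12, with 46 of 52 positive, against 11427 of all 22294 genes. For 10 of the 52 all day 30 libraries were above all day 7 libraries (8.16% of all genes). By edgeR 0 were called (8 higher and 0 lower at an unadjusted p under 0.05, 0 higher and 0 lower by DESeq2). On the lesion side the median of this list was -0.046.

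Hspa1b showed the largest rise of any called gene. It encodes the stress-inducible chaperone Hsp70, which refolds damaged proteins and is made when heat shock factor is active (GRCm38 chr17:34956436-34959238, minus strand). It had 4.82, 2.36 and 3.95 CPM on day 30, against 0.719, 1.1 and 1.07 CPM on day 7. Hspa1b rose, with a log2 difference of 1.95 ± 0.30, adjusted p = 0.00722. Every day 30 library was above every day 7 library, with replicate 2 the lowest of day 30. The call was lost without day 30 replicate 3 (adjusted p = 0.0519) and kept in the other 5 fits that left a library out. Hspa1b is the 1 called gene with an absolute log2 difference of at least 1.7, the stricter limit that the authors also used. On day 14 the level was 1.22, 0.986 and 1.28 CPM and in the unoperated pons 1.41, 0.796 and 1.42 CPM, so all 3 day 30 libraries were also above those.

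Hspa1a, its neighbouring twin, cannot be fully separated from it: 62.3% of the 50-base windows of Hspa1b also occur in Hspa1a. Hspa1a had 5.11, 2.98 and 2.63 CPM on day 30, against 2.21, 2.49 and 1.95 CPM on day 7. Its log2 difference was 0.69 ± 0.24 (95% interval 0.20 to 1.19, adjusted p = 0.294). Its groups did not overlap, but the gap between the days was narrow. Dnajb1, a cochaperone of Hsp70, had 78.1, 72.2 and 79 CPM on day 30, against 57, 65.5 and 63.9 CPM on day 7 (0.30 ± 0.078, adjusted p = 0.122). The small heat shock gene Hspb1 had 8.43, 6.25 and 7.09 CPM on day 30, against 5.49, 5.73 and 5.3 CPM on day 7 (0.40 ± 0.14, adjusted p = 0.304). Of the 20 genes in the heat shock and chaperone list 1 rose by edgeR (5 higher and 4 lower at an unadjusted p under 0.05, 1 higher and 0 lower by DESeq2), with a median log2 difference of 0.012 over the list. Over all 22294 genes 0.0987% were called higher, and 2224 had an unadjusted p under 0.05. The summed level was 4188 to 4540.3 CPM on day 30, against 4375 to 4760.2 CPM on day 7. Of the 20 genes of the unfolded protein response 0 were called by edgeR (0 higher and 4 lower at an unadjusted p under 0.05, 0 higher and 1 lower by DESeq2), with a median of -0.060.

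The promoters of the pair are shown because both hold the same heat shock element core in nearly the same surroundings. The windows run from 250 bases before to 50 bases after the start of transcription in RefSeq on GRCm38.p6, at chr17:34959189-34959488 for Hspa1b and chr17:34972107-34972406 for Hspa1a, both on the minus strand. Capitals mark the 1 match to GAANNTTC found in each, searched on both strands (the motif reads the same on either). Among promoters of the heat shock list 11 of 22 (50%, 16 genes) held the motif, against 2582 of all 32851 promoters in the table (7.86%). Dnajb1 had 0 matches in 2 promoters. The list was made of heat shock genes, so its larger share does not bear on the rise of Hspa1b. A match describes letters only, and binding was not measured.
Hspa1b: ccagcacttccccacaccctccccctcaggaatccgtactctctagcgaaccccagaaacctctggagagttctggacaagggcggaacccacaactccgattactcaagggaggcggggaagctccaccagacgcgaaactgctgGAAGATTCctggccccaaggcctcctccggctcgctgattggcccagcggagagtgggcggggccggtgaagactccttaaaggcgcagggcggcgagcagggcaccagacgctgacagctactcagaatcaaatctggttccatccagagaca
Hspa1a: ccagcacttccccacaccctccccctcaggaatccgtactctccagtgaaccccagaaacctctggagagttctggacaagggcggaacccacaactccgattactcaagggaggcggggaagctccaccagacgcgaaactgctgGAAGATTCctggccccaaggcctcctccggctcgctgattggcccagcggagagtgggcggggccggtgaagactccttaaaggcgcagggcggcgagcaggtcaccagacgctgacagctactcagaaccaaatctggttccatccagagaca

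Fmo2 and Zfp366 were the other called genes outside mitochondrial sequence with a log2 difference above 1. Fmo2 encodes a flavin-containing monooxygenase that oxidises foreign compounds (GRCm38 chr1:162874317-162898726, minus strand). It had 9.58, 11.6 and 13.4 CPM on day 30, against 4.52, 3.34 and 3.02 CPM on day 7. Fmo2 rose, with a log2 difference of 1.67 ± 0.31, adjusted p = 0.0499. The lowest day 30 library was above the highest day 7 library by a wide gap, yet the call was lost without any single one of the 6 libraries (adjusted p from 0.0683 to 0.235). Fmo2 stood at 3.62, 6.65 and 8.54 CPM on day 14 and at 2.46, 1.36 and 1.91 CPM in the unoperated pons, with every day 30 library above all of these. Zfp366, a zinc finger gene (GRCm38 chr13:99184823-99250656, plus strand), had 3.9, 4.67 and 5.31 CPM on day 30, against 2.72, 1.54 and 1.95 CPM on day 7. Zfp366 rose, with a log2 difference of 1.16 ± 0.24, adjusted p = 0.0432. Its call was lost without day 30 replicate 2 or 3 or day 7 replicate 2 or 3 (up to 0.256). The unoperated libraries, at 5.88, 2.95 and 3.66 CPM, overlapped the day 30 range.

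No gene of the glucocorticoid list was called by edgeR. All 24 listed genes had positive log2 differences, against 11427 of all 22294 genes, with a median of 0.35. The list had 3 higher and 0 lower at an unadjusted p under 0.05, 0 higher and 0 lower by DESeq2. Summed levels overlapped, at 1597 to 2119 CPM on day 30, against 1350.1 to 1684 CPM on day 7. In each of the 6 operated groups replicate 1 had the lowest and replicate 3 the highest sum. For 4 of the 24, against 8.16% of all genes, all day 30 libraries were above all day 7 libraries. Plin4, a lipid droplet coat gene, had 19.1, 36 and 50.0 CPM on day 30, against 13.8, 11 and 12.2 CPM on day 7 (95% interval of the log2 difference 0.26 to 2.76, adjusted p = 0.404). Pdk4, a kinase that restrains glucose oxidation, had 25.7, 28.3 and 37.7 CPM on day 30, against 19.2, 14.8 and 18.6 CPM on day 7 (-0.016 to 1.62, 0.509). Both kept their groups apart, though replicates spread widely. Sgk1, a kinase gene named after its values were seen, had 251, 341 and 425 CPM on day 30, against 81, 154 and 319.9 CPM on day 7, with overlapping groups. The lesion libraries had 253, 353 and 465 CPM on day 30, against 79.5, 149 and 321 CPM on day 7. On both sides and both days replicate 1 was the lowest and replicate 3 the highest.

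Clock genes had differences in both directions, and 0 of 23 were called by edgeR (5 higher and 2 lower at an unadjusted p under 0.05, 2 higher and 1 lower by DESeq2), with a median of 0.023. Cry1, a repressor of the clock, had 19.3, 21.1 and 19.2 CPM on day 30, against 15.3, 13.7 and 12.6 CPM on day 7, without overlap (0.51 ± 0.12, 95% interval 0.28 to 0.75, adjusted p = 0.0678). Per2, another repressor, had 26.1, 26.3 and 32.9 CPM on day 30, against 17.5, 13.8 and 16.4 CPM on day 7 (0.84 ± 0.22, adjusted p = 0.180). Nr1d1, which represses the activator gene Arntl, had 53.2, 57.5 and 47.5 CPM on day 30, against 92.2, 76.1 and 74 CPM on day 7 (-0.62 ± 0.16, adjusted p = 0.171), with all day 30 libraries below day 7.

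Among 13 long non-coding RNAs measured 2 rose by edgeR, against 0.0987% of all genes (6 higher and 0 lower at an unadjusted p under 0.05, 4 higher and 0 lower by DESeq2). The list's median was 0.21, and its summed level was 5373 to 5659 CPM on day 30, against 4377 to 5526 CPM on day 7. Gas5, which hosts small nucleolar RNAs in its introns and whose human form binds the glucocorticoid receptor (GRCm38 chr1:161034422-161038539, plus strand), had 106, 113 and 109 CPM on day 30, against 80.7, 84.4 and 74.4 CPM on day 7. Gas5 rose, with a log2 difference of 0.45 ± 0.073, adjusted p = 0.00757. The 3 day 30 libraries lay close together and above all day 7 libraries, and the call was lost without day 30 replicate 2 or 3 or day 7 replicate 3 (adjusted p up to 0.0657). On day 14 Gas5 stood at 74.6, 82 and 85.5 CPM, in or close to the day 7 range. Of its 50-base windows 5.21% lie in small RNA genes annotated within it. Miat, a nuclear RNA of neurons (GRCm38 chr5:112213228-112229395, minus strand), had 270.4, 255 and 235 CPM on day 30, against 188, 181 and 223 CPM on day 7. Miat rose, with a log2 difference of 0.36 ± 0.072, adjusted p = 0.0332. Day 7 replicate 3 was near the day 30 range, and day 14 was as high as day 30 at 262, 254 and 275 CPM. The call was lost without day 30 replicate 1, 2 or 3 or day 7 replicate 1 or 2 (up to 0.185). Gm26953 lies opposite Miat and shares 1843 of its 9475 windows. The imprinted RNA Meg3 had 2354, 2296 and 2298 CPM on day 30, against 1694, 1634 and 2229.6 CPM on day 7 (0.32 ± 0.094, adjusted p = 0.209). Snhg11 had 1114, 1050.1 and 1034 CPM on day 30, against 831, 819 and 1079 CPM on day 7 (0.23 ± 0.082, adjusted p = 0.315). In both, day 7 replicate 3 was well above the other day 7 libraries.

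Another 5 genes rose, with log2 differences of 0.43 or less. Dusp19, a dual-specificity phosphatase of stress kinase pathways (GRCm38 chr2:80617045-80632361, plus strand), had 23.4, 27.9 and 27.2 CPM on day 30, against 18.2, 19 and 20.8 CPM on day 7 (0.43 ± 0.092, adjusted p = 0.0499). Dbndd2, a dysbindin domain gene (GRCm38 chr2:164486106-164493319, plus strand), had 168, 181 and 204 CPM on day 30, against 141, 148 and 138 CPM on day 7 (0.37 ± 0.070, adjusted p = 0.0238). Of its windows 19.5% also belong to the readthrough gene Gm20458 on the same strand. Neither gene's day 30 libraries overlapped day 7. The other 3 are outside the naming rule and named after their values were seen. Fnbp1l, an F-BAR protein gene of actin assembly, had 58.6, 57.2 and 60.4 CPM on day 30, against 41.7, 43.4 and 51.5 CPM on day 7 (0.37 ± 0.075, adjusted p = 0.0444). Eogt, which adds N-acetylglucosamine to secreted proteins, had 34.2, 33.2 and 33.9 CPM on day 30, against 25.8, 28.3 and 27.4 CPM on day 7 (0.31 ± 0.066, adjusted p = 0.0499). The transcribed pseudogene Ppp4r1l-ps had 43.6, 42.4 and 41.6 CPM on day 30, against 34.9, 33 and 35.6 CPM on day 7 (0.30 ± 0.064, adjusted p = 0.0499). Dusp19 and Dbndd2 were called only without day 30 replicate 1, Fnbp1l only without day 7 replicate 3, and Eogt and Ppp4r1l-ps in none of the 6 fits.

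Of the genes that fell, Chgb encodes chromogranin B, a granin that packs cargo into dense-core secretory granules (GRCm38 chr2:132781278-132795079, plus strand). It had 306, 316 and 294 CPM on day 30, against 383, 420.0 and 439 CPM on day 7. Chgb fell, with a log2 difference of -0.44 ± 0.081, adjusted p = 0.0238. All day 30 libraries were below the lowest day 7 library, which was replicate 1, and below the unoperated libraries at 367, 465 and 342 CPM. Without replicate 1 of day 7 the difference was -0.49 (adjusted p = 0.0276), and in the other 5 such fits the call was lost (up to 0.221). The other granins were nearer to 0. Chga had 400.4, 405 and 378 CPM on day 30, against 457, 437 and 424 CPM on day 7 (-0.16 ± 0.064, adjusted p = 0.409). Scg2 had 465, 455 and 471 CPM on day 30, against 448, 553 and 571 CPM on day 7 (-0.18 ± 0.10, adjusted p = 0.595). Scg3 had 339, 337 and 321 CPM on day 30, against 383, 353 and 365 CPM on day 7 (-0.14 ± 0.060, adjusted p = 0.427). Of 23 genes of synaptic vesicles and release 0 were called by edgeR (0 higher and 5 lower at an unadjusted p under 0.05, 0 higher and 0 lower by DESeq2). Their median was -0.076, 2 had positive differences, and the summed level was 16068 to 16862 CPM on day 30, against 17554 to 18453 CPM on day 7, without overlap. For 7 of these 23 genes all day 30 libraries were below all day 7 libraries, against 8.87% of all genes.

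Gfra2, the receptor for neurturin (GRCm38 chr14:70890120-70979838, plus strand), had 22.1, 24.5 and 24.2 CPM on day 30, against 32, 30.8 and 35 CPM on day 7. Gfra2 fell, with a log2 difference of -0.47 ± 0.089, adjusted p = 0.0238. The unoperated pons, at 26.9, 21.8 and 24.3 CPM, overlapped the day 30 range and was below day 7. Tuba8, an alpha tubulin gene (GRCm38 chr6:121210696-121226854, plus strand), had 7.47, 7.99 and 7.8 CPM on day 30, against 12.3, 11.3 and 10.2 CPM on day 7. Tuba8 fell, with a log2 difference of -0.54 ± 0.11, adjusted p = 0.0499. Of its windows 14.7% are shared, mostly with Gm15856 on the opposite strand. Both genes kept their groups apart, and both calls were lost in each of the 6 fits that left a library out (adjusted p from 0.0618 to 0.136 for Gfra2 and from 0.0647 to 0.233 for Tuba8). The related receptor gene Gfra1 had 74.3, 61.7 and 64.6 CPM on day 30, against 63.9, 59.5 and 57.5 CPM on day 7 (0.15 ± 0.11, 95% interval -0.089 to 0.39).

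In the myelin list 1 of 20 genes fell and 0 rose by edgeR (2 higher and 4 lower at an unadjusted p under 0.05, 1 higher and 1 lower by DESeq2), against 0.0404% of all genes that fell. The list had a median of -0.11 and a summed level of 31758 to 33166 CPM on day 30, against 29352 to 33395 CPM on day 7. Fa2h, which hydroxylates the fatty acids of myelin galactolipids (GRCm38 chr8:111345135-111393824, minus strand), had 143, 131 and 129 CPM on day 30, against 164, 187 and 164 CPM on day 7. Fa2h fell, with a log2 difference of -0.35 ± 0.069, adjusted p = 0.0293. The call was lost without day 30 replicate 2 or 3 or day 7 replicate 2 or 3 (up to 0.233). Its level was 212, 222 and 221 CPM in the unoperated pons and 149, 157 and 145 CPM on day 14, so that the libraries of days 0, 7, 14 and 30 did not overlap and each day lay below the one before it. Structural myelin genes pointed both ways. Mbp had 13053, 13614 and 14830.0 CPM on day 30, against 12406, 12519 and 10842 CPM on day 7 (0.21 ± 0.070, adjusted p = 0.261). Mobp had 4497, 4679 and 5098 CPM on day 30, against 4142, 4213 and 3709 CPM on day 7 (0.24 ± 0.060, adjusted p = 0.106). Both had all day 30 libraries above all day 7 libraries. The enzyme gene Cnp had 1101, 1103 and 1033 CPM on day 30, against 1236, 1313 and 1147 CPM on day 7 (-0.19 ± 0.062, adjusted p = 0.259), with all day 30 libraries below day 7. Mog had 323, 319.9 and 325 CPM on day 30, against 325, 396 and 329.8 CPM on day 7 (-0.12 ± 0.077, adjusted p = 0.649), with overlap. Gsn, which severs actin filaments and is abundant in oligodendrocytes (GRCm38 chr2:35256380-35307892, plus strand), had 206, 211 and 194 CPM on day 30, against 263, 318 and 256 CPM on day 7. Gsn fell, with a log2 difference of -0.45 ± 0.090, adjusted p = 0.0432. Its day 14 level was 212, 243 and 247 CPM, and the call was lost in each of the 6 fits (adjusted p from 0.0508 to 0.263). In the list of precursors and early myelinating cells 0 of 18 were called by edgeR (1 higher and 4 lower at an unadjusted p under 0.05, 0 higher and 1 lower by DESeq2). Gpr17, a receptor of cells about to myelinate, had 60.0, 53.8 and 52.7 CPM on day 30, against 62.6, 85.8 and 78.6 CPM on day 7 (-0.45 ± 0.11, adjusted p = 0.106).

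Adamts2 and Vstm4 also fell. Adamts2 cuts the amino-terminal propeptide off fibrillar procollagens (GRCm38 chr11:50602084-50807573, plus strand) and had 25, 26.8 and 26.3 CPM on day 30, against 33.1, 33.4 and 36.8 CPM on day 7. Adamts2 fell, with a log2 difference of -0.40 ± 0.080, adjusted p = 0.0332. Vstm4, a membrane protein gene (GRCm38 chr14:32856756-32939491, plus strand), had 9.2, 8.33 and 9.02 CPM on day 30, against 14.2, 13.9 and 11.6 CPM on day 7. Vstm4 fell, with a log2 difference of -0.58 ± 0.12, adjusted p = 0.0496. Each day 30 library was below each day 7 library in both genes. Both calls were lost in each of the 6 fits (adjusted p from 0.0617 to 0.218 for Adamts2 and from 0.0508 to 0.230 for Vstm4). The unoperated pons held more Vstm4, at 21.3, 26.7 and 24.3 CPM. Of 22 collagen and leptomeningeal genes 0 were called by edgeR (0 higher and 4 lower at an unadjusted p under 0.05, 0 higher and 1 lower by DESeq2). Their median was -0.20, with 5 positive and 6 with all day 30 libraries below day 7, against 8.87% of all genes. Summed levels were 2896 to 3330.3 CPM on day 30, against 3291 to 4058 CPM on day 7. Col4a1, a basement membrane collagen, had 41.7, 34.7 and 36.9 CPM on day 30, against 45, 52.3 and 46.6 CPM on day 7 (-0.34 ± 0.076, 95% interval -0.50 to -0.19, adjusted p = 0.0678). Col1a1 had 26.1, 21.7 and 16.7 CPM on day 30, against 26.7, 46.5 and 37.7 CPM on day 7 (-0.78 ± 0.27, adjusted p = 0.318). These genes mark meninges and vessels, whose part in the falls of Adamts2 and Vstm4 was not tested.

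Regulators were the last group. Ets2, a transcription factor downstream of Ras signalling (GRCm38 chr16:95702075-95721051, plus strand), had 31.8, 33.2 and 31.1 CPM on day 30, against 39.4, 39.8 and 43.8 CPM on day 7. Ets2 fell, with a log2 difference of -0.36 ± 0.068, adjusted p = 0.0238. The paralog Ets1 had 17.4, 16.7 and 14.2 CPM on day 30, against 17.1, 20.4 and 18 CPM on day 7 (-0.20 ± 0.11, adjusted p = 0.552). Smarca4, the ATPase of the BAF chromatin remodelling complex (GRCm38 chr9:21616169-21704230, plus strand), had 159, 152 and 152 CPM on day 30, against 193, 176 and 185 CPM on day 7. Smarca4 fell, with a log2 difference of -0.26 ± 0.055, adjusted p = 0.0499. The alternative ATPase Smarca2 had 212, 221 and 219.5 CPM on day 30, against 241, 232 and 244 CPM on day 7 (-0.14 ± 0.063, adjusted p = 0.484). Ets2 and Smarca4 kept the days apart without exception. Smarca4, Tuba8 and Ppp4r1l-ps were the called genes nearest to the threshold, and Hs3st1 (adjusted p = 0.0508), Smc1a and Kirrel2 (0.0562 each) the nearest outside it. Ets2 was called only without day 7 replicate 1, and Smarca4 in none of the fits that left a library out (up to 0.263).

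Of 43 gene lists 39 held no called member. These 39 cover 783 genes, of which 113 had an unadjusted p under 0.05 (42 higher and 71 lower), against 2224 of all 22294 genes. That is a larger share than over all genes, so the lists are not shown to be unchanged. The calls of DESeq2 in these lists add up to 12, against 162 over all 22294 genes. Microglial and immune lists were among them. The homeostatic list had a median of 0.059 over 16 genes (1 higher and 0 lower at an unadjusted p under 0.05, 0 higher and 0 lower by DESeq2), with Tmem119 at 24, 21.2 and 26.7 CPM on day 30, against 23.1, 22.4 and 21.9 CPM on day 7 (0.10 ± 0.10, 95% interval -0.10 to 0.29). The activation list had a median of 0.0027 over 20 genes (0 higher and 1 lower at an unadjusted p under 0.05, 0 higher and 0 lower by DESeq2). The complement list had a median of 0.13 over 18 (2 higher and 1 lower at an unadjusted p under 0.05, 0 higher and 0 lower by DESeq2), with C1qa at 57.1, 54.3 and 52.6 CPM on day 30, against 48.3, 49.7 and 43.6 CPM on day 7 (0.21 ± 0.079, 0.050 to 0.37). The Cx3cr1 transcript had 22.7, 16.9 and 16.3 CPM on day 30, against 22.2, 19.9 and 18.2 CPM on day 7 (-0.11 ± 0.15, -0.42 to 0.21). For interferon response genes the median was 0.037 over 30 (1 higher and 0 lower at an unadjusted p under 0.05, 0 higher and 0 lower by DESeq2), and 0.63 on the lesion side. Among astrocyte genes Gfap spread widely, at 871, 770.0 and 634 CPM on day 30, against 678, 989.7 and 718 CPM on day 7 (95% interval -0.42 to 0.28).

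No gene of the neuronal lists that follow was called by edgeR. The 20 motor neuron genes had a median of 0.13 (1 higher and 1 lower at an unadjusted p under 0.05, 0 higher and 0 lower by DESeq2). The 20 tested axotomy response genes had a median of -0.034 (1 higher and 0 lower at an unadjusted p under 0.05, 0 higher and 0 lower by DESeq2). The 24 potassium channel genes had a median of -0.0081 (0 higher and 3 lower at an unadjusted p under 0.05, 0 higher and 1 lower by DESeq2). Among them the inward rectifier gene Kcnj9 had 54.2, 58.3 and 56.3 CPM on day 30, against 70.6, 64.9 and 67.3 CPM on day 7 (-0.26 ± 0.062, 95% interval -0.39 to -0.14, adjusted p = 0.0843). Among developmental genes, Fabp7, a fatty acid binding protein of radial glia and immature astrocytes, had 27.8, 31.9 and 27.2 CPM on day 30, against 41.8, 46 and 46.6 CPM on day 7 (-0.63 ± 0.14, -0.92 to -0.34, adjusted p = 0.0859), without overlap. Red blood cell genes summed to 172 to 176 CPM on day 30, against 182 to 207 CPM on day 7.

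The lesion side gave the same contrast in other libraries, although both sides may come from the same animals. Neighbouring tissue differed there too. The choroid plexus list summed to 678, 593 and 604 CPM on day 30, against 647, 605 and 6848 CPM on day 7. The pituitary and muscle list summed to 9.69, 14.3 and 8.89 CPM on day 30, against 373, 18.6 and 251 CPM on day 7. The part of this tissue in the lesion contrast and in the difference between sides was not tested. The lesion libraries also entered the model's estimate of the spread, on which the 31 calls rest. Calls and lack of overlap on the lesion side are therefore not independent of the contralateral calls. On the lesion side, 1054 genes were called (4.73%), 504 higher (2.26%) and 550 lower (2.47%) on day 30. All 31 genes of the contralateral comparison had the same sign on the lesion side, as did 66.9% of all genes, and 27 were called there. Same-numbered libraries of the 2 sides deviated together within a day, so the sides are not independent. Their lesion libraries of the 2 days did not overlap in any of the 31, which held for 28.6% of all genes. Hspa1b had 5.56, 2.86 and 4.72 CPM on day 30, against 1.39, 1.39 and 1.16 CPM on day 7 on the lesion side (1.75 ± 0.28, adjusted p = 0.000845). There mt-Co1 had 14375, 13729.5 and 13801 CPM on day 30, against 8555, 7392 and 8359.6 CPM on day 7 (0.79 ± 0.093, adjusted p = 4.83e-05). Fmo2 had 11.2, 10.9 and 13.3 CPM on day 30, against 3.69, 2.19 and 3.32 CPM on day 7 (1.94 ± 0.32, adjusted p = 0.00306). The 4 without a call there were Ppp4r1l-ps, Gm11408, Gfra2 and mt-Tq. The mitochondrial share was 6.12% ± 0.298 on day 30 and 3.76% ± 0.126 on day 7 on the lesion side (SD, n = 3 each), a ratio of 1.63.

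The difference between the 2 changes, contralateral minus lesion side, was tested in the same model. It was called for 6 of 22294 genes (0.0269%), all positive and none among the 31 (960 genes at an unadjusted p under 0.05, and 29 called by DESeq2). Of the 31 genes mt-Tq had the largest difference, 0.74 ± 0.26 with an unadjusted p of 0.00817 and an adjusted p of 0.962. The 31 absolute differences ran from 0.011 to 0.74 with SE from 0.078 to 0.45. Differences within these errors could not be detected. With the 2 sides of a number treated as a pair, 112 genes were called (0.502%), 90 of them positive, again with 0 of the 31. The 6 genes fell on the lesion side, and none was called on the contralateral side. Gfra1, the GDNF receptor gene, had 80.9, 99.2 and 111 CPM on day 30, against 166, 163 and 173 CPM on day 7 on the lesion side (-0.79 ± 0.11, adjusted p = 0.000552). Gadd45a, a stress gene, had 8.67, 8.72 and 8.41 CPM on day 30, against 10.6, 9.17 and 7.74 CPM on day 7 on the contralateral side (-0.092 ± 0.13). On the lesion side it had 8.15, 10.8 and 12.4 CPM on day 30, against 21.2, 23.6 and 21 CPM on day 7 (-1.08 ± 0.12, adjusted p = 9.76e-06).

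**Figure D5:**
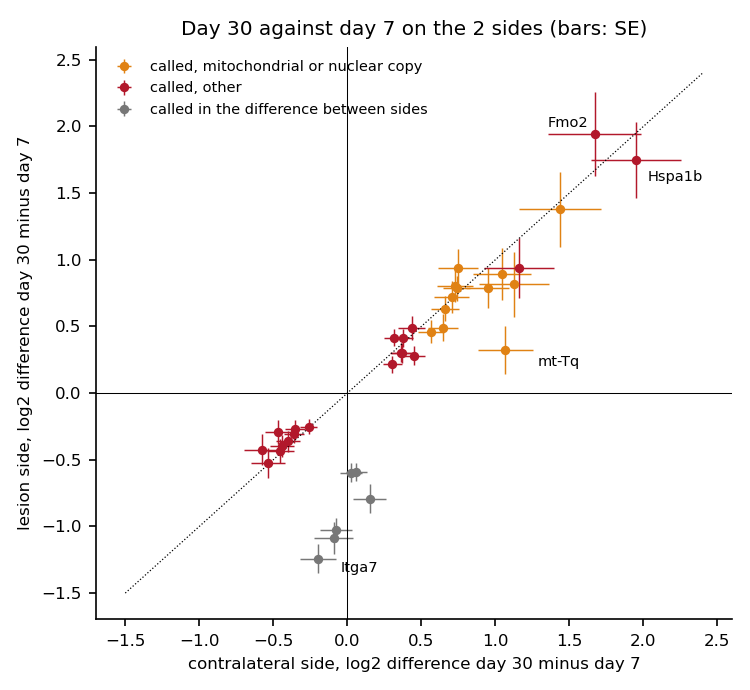
Log2 difference, day 30 minus day 7, on the contralateral side (horizontal) against the lesion side (vertical), with SE bars, for the 31 genes called on the contralateral side and the 6 genes called in the difference between sides. The 31 genes lie near the dotted line of equal change, with mt-Tq furthest below it, and the 6 genes (grey) lie near 0 on the horizontal axis and between -1.24 and -0.59 on the vertical one.

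The unoperated pons and day 14 place these changes in time, as a description without a test. The mitochondrial share was 3.25% ± 0.309 on day 0, 4.17% ± 0.257 on day 7, 4.59% ± 0.147 on day 14 and 6.66% ± 0.542 on day 30 (SD, n = 3 each). The day 14 mean lay between those of day 7 and day 30 for 28 of the 31 genes. For 19 of the 22 that rose, all day 30 libraries were above all day 0 libraries, against 16.2% of all genes. For 8 of the 9 that fell they were all below, against 17.1%. The 31 were called for their day 30 levels, so these counts are not independent of the call. Day 7 differed from day 0 for part of the genes. Of the 22 that rose, 7 already had all day 7 libraries above day 0 and 4 had them all below, against 12.9% and 13.6% of all genes. The nuclear copy Gm13341, for instance, had 31.2, 33 and 39.7 CPM on day 0, 96.6, 87.4 and 94.5 CPM on day 7 and 93.3, 108 and 99.7 CPM on day 14. Gm13340 had 78, 80.7 and 101 CPM on day 0, 62.5, 47.9 and 46 CPM on day 7 and 66.6, 74.6 and 74.4 CPM on day 14. The day 0 libraries were also more deeply sequenced, at 35874913 to 41448945 counts. Their column headers name the same lane as those of day 7 and repeat some of the same index sequences. Libraries with the same index cannot be separated within a lane, so the day 0 and day 7 libraries with a shared index were sequenced apart. Steps from day 0 therefore cannot be told apart from a difference in sequencing.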

How the data were processed

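Sequencing gave single 50-base reads from strand-preserving mRNA libraries (input 300 ng), per the labels' protocols. The authors used CASAVA 1.8.2, Rsubread with its default settings on GENCODE M7 (GRCm38.p4) and featureCounts, per the series' design text and the submitters' processing notes. How reads with several placements were treated is not given in the sources used here. The deposited table holds raw counts, and the authors' second table holds log2 CPM after a filter that dropped genes up to the 32nd percentile of summed counts.

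Here, genes with at least 30 summed counts were tested with edgeR 4.0.16 in R 4.3.3 by its two-sided quasi-likelihood test, fitted robustly with TMM factors and 1 coefficient for each of the 7 groups over all 21 libraries, with Benjamini-Hochberg adjustment over the 22294 genes. The method was tested on simulated data. Alternatives were DESeq2 1.42.0, limma-voom (limma 3.58.1), limma on the deposited log2 values, other size factors, filters, sets of libraries and thresholds, a block for replicate number, and leaving out each library. Leaving out nuclear copies and pairing the sides were added after seeing the data. The members and the gene lists were chosen with earlier results of these data known.

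Named genes were the up to 12 higher and 12 lower called genes with the largest log2 difference, at least 1 CPM on average and groups that did not overlap, without predicted or clone-based symbols. To these were added the up to 4 members of each list with the smallest adjusted p, other members of small families, and Sprr1a and Atf3. Atf3 is not described above, and some genes, such as Mog, were named outside this rule. Replicates of a group differed by more than sampling noise (chi-square per degree of freedom 4.03 to 9.74). After group means were removed, same-numbered libraries of the 2 sides correlated at 0.273, 0.239 and 0.167 on day 7 and at 0.210, 0.215 and 0.194 on day 30, so numbers pair the sides within a day. Identical 50-base windows and copies were sought in GENCODE M21 transcripts, and promoters were taken from RefSeq (GRCm38.p6).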

Additional observations from a re-analysis of the deposited data

Results flagged for a closer look

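For 6 genes the change between day 30 and day 7 differed between the sides by the test of that difference (contralateral change minus lesion change, log2). It was 0.65 for Uck2, a uridine kinase gene, 0.99 for Gadd45a, a stress gene, 1.04 for Itga7, a laminin-binding integrin gene, 0.95 for the tubulin gene Tubb6, 0.62 for the desaturase family gene Fads3 and 0.94 for Gfra1, the GDNF receptor gene. Adjusted p ran from 0.00464 (Uck2 and Tubb6) to 0.0399 (Gfra1). In all 6 the lesion side fell, while none was called on the contralateral side. With the 2 sides of a number treated as a pair, Uck2, Gadd45a, Tubb6 and Fads3 kept an adjusted p under 0.05, and Itga7 (0.125) and Gfra1 (0.269) did not.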

How the results depend on the processing

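The number of genes called on the contralateral side, 31 here, was 162 with DESeq2, 17 with limma-voom, 15 without mitochondrially encoded genes, 2 without their nuclear copies too, 104 with no filter beyond a count above 0, 140 in a fit of only the compared groups, 66 with a replicate block across days, and 1 with the added log2 threshold of 1.7. It lay between 26 and 39 with other size factors, edgeR's own filter and the deposited log2 values, and between 1 and 21 when a library was left out. After group means were removed, same-numbered contralateral libraries of day 30 and day 7 correlated at 0.012, -0.061 and 0.117. Libraries of unlike numbers correlated between -0.092 and 0.082. The summed glucocorticoid list nevertheless kept the same order of replicate numbers on each day. On the lesion side the count of 1054 became 1600 with DESeq2, 2418 with only the compared groups, 52 with the log2 threshold and 301 to 801 without 1 library, and ran from 948 to 1406 in the other settings. For the difference between sides the count of 6 became 29 with DESeq2, 10 with the deposited log2 values, 32 without the filter, 20 with only the compared groups, 112 with the sides of a number as a replicate block (pairs), 0 with the log2 threshold and 2 to 7 without 1 library. The cause of these shifts was not tested, apart from fewer genes or libraries where the setting itself removes them. No called gene changed sign in any setting. Over the 31 genes, calls were kept in 49 and lost in 137 fits without a library, and kept in 233 and lost in 53 other settings. Genes described without a call gained one in 1 fit without a library and in 25 other settings. With 3 libraries per group, genes of few counts had wide intervals, and changes within them could not be detected.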
